A study of Mus musculus with 4 samples.

Results

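The 10 genes described here encode the enzymes and carriers that make, move or remove phosphate and pyrophosphate where bone mineral forms, with a secreted kinase, its pseudokinase partner and an acidic matrix protein. They are Alpl, Phospho1, Enpp1, Ank, Slc20a1, Slc20a2, Phex, Ibsp, Fam20a and Fam20c, taken by symbol from the 21881 genes of the deposited table. The members were chosen by function with the measured FPKM of the NR6A1 and vector libraries already known, in which Alpl and Phospho1 had been seen lower with NR6A1. That comparison is therefore given for these genes as a description, and no count of members in it is used as support for anything.

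The cells were immortalised clonal lines of mesenchymal stem cells, fibroblast-like cells of adult mouse bone marrow that can give rise to bone, fat and cartilage. The NR6A1 group was Clone 6 and Clone 12 infected with a pMMP-puro retrovirus for Flag-HA-NR6A1 (1 library each, n = 2), and the vector group was the same 2 clones infected with the empty pMMP-puro virus (n = 2). All 4 cultures carried the Dicer f/f genotype, described as wild type for Dicer, on the C57BL/6 strain, and grew in alpha-MEM with fetal bovine serum. Each line is a single clone, and NR6A1 (germ cell nuclear factor), a receptor with no known ligand that mostly turns genes off in early embryos and germ cells, came from a retrovirus and not from the cell's own gene. The measured quantity was FPKM, a level scaled to transcript length and to library size, which allows levels of different genes to be set side by side.

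Mineral forms when phosphate is plentiful and pyrophosphate, which blocks crystal growth, is scarce. Alpl, tissue-nonspecific alkaline phosphatase, splits pyrophosphate at the cell surface, and Phospho1 releases phosphate from phosphocholine and phosphoethanolamine inside matrix vesicles. Enpp1 makes pyrophosphate from ATP outside the cell and Ank lets it or its precursor ATP leave the cell, so both act as brakes. Slc20a1 and Slc20a2 (PiT1 and PiT2) bring phosphate into the cell, and loss of the endopeptidase Phex causes phosphate wasting. Ibsp (bone sialoprotein) is a matrix protein of mineralising tissue, Fam20c is the Golgi kinase that phosphorylates such secreted proteins, and Fam20a is a pseudokinase that raises Fam20c activity and is needed for enamel.

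Promoter windows of 9 of the 10 genes were found in RefSeq (build GRCm38.p6), each 250 bases before to 50 after an annotated start. The windows of Alpl, Phospho1, Fam20a and Ibsp are shown because these are the 4 genes with the largest decreases described below, in both clones for the first 3 and in clone 6 for Ibsp. Capitals mark a match on either strand to a motif. AGGTCA is the half-site of many nuclear receptors. TCAAGGTCA is the extended half-site known for NR6A1. TGTGGT is the core bound by RUNX factors. A TATA box was searched as TATAAA. Alpl has a pair of annotated starts, and FPKM of the gene does not tell them apart.
Alpl, upstream start (chr4:137796335-137796634, minus strand): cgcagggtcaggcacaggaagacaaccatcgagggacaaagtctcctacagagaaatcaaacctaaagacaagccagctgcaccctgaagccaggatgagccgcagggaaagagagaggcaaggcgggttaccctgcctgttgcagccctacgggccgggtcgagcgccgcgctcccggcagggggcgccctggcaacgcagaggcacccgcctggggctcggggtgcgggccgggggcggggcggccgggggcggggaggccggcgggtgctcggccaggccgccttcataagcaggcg
Alpl, downstream start (chr4:137766426-137766725, minus strand): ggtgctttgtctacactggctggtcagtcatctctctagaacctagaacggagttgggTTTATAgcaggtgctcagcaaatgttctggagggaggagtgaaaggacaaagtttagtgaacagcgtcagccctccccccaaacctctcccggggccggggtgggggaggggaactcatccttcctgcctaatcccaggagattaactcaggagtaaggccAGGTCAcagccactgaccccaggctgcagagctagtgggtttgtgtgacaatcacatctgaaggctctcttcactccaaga
Phospho1 (chr11:95824250-95824549, plus strand): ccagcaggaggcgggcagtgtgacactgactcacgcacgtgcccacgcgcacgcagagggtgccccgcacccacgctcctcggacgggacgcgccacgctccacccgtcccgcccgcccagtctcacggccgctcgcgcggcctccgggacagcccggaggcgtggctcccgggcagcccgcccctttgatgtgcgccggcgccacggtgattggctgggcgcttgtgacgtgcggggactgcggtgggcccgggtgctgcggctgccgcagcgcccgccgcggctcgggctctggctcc
Fam20a (chr11:109722189-109722488, minus strand): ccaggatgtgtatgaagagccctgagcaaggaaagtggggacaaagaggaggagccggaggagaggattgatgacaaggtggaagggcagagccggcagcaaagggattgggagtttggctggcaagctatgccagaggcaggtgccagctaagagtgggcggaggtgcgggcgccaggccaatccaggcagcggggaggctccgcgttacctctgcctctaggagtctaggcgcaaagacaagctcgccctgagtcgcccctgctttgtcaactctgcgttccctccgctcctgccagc
Ibsp (chr5:104299037-104299336, plus strand): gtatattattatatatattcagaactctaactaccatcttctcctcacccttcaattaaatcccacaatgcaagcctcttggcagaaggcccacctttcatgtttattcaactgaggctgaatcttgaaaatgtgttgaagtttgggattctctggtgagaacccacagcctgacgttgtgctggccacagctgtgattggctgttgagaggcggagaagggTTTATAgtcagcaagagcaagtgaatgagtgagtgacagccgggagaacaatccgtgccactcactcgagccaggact

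Of these 5 windows, the downstream Alpl window holds an AGGTCA at position -31 and a TATAAA on the opposite strand at position -192, counted from the start site to the leftmost base as printed. The Ibsp window holds a TATAAA on the opposite strand at position -28, the inverted TATA box for which this gene is known. The windows of Phospho1 and Fam20a and the upstream Alpl window hold none of the motifs. Of the other members, Enpp1 has a TGTGGT, both windows of Slc20a1 have an AGGTCA, and 1 of them also has a TGTGGT and a TATAAA. Over all 32851 promoter windows of the RefSeq table, 16.3% hold AGGTCA, 0.423% TCAAGGTCA, 16.8% TGTGGT and 13.6% TATAAA, and 2 hold AGGTCA repeated with no gap, the direct repeat bound by NR6A1. No member's window holds TCAAGGTCA or the direct repeat, which says only that these letters are not in these 300 bases. In base composition the windows differ: GC is 77.0% with 42 CpG in Phospho1, 61.7% with 13 in Fam20a, 46.3% with 5 in Ibsp, and 70.0% with 26 and 54.3% with 4 in the upstream and downstream Alpl windows, against a median of 52.7% and 7 over the table.

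Nr6a1 stood at 783 and 598 FPKM in the NR6A1 libraries and at 4.18 and 2.80 in the vector libraries, which fits the labels, with viral and cellular transcripts not told apart. The depth inferred from the steps between low values was 20.5 to 21.1 M (1e6) reads in the NR6A1 libraries and 23.0 to 24.4 M in the vector libraries, an estimate. Of 10 fibroblast and stromal markers, 9 passed the filter, with summed levels of 4546 to 5727 FPKM in the NR6A1 libraries and 4100.2 to 6015 in the vector libraries, but Thy1, often used to define such cells, was at 0.0297 FPKM or less. No marker of osteoclasts, endothelium, osteocytes or adipocytes exceeded 0.848 FPKM in any library; the pan-leukocyte marker Ptprc was at 0.0234 or less. The 6 chondrocyte markers summed to 7.01 to 12.2 FPKM in the NR6A1 libraries and 7.09 to 8.04 in the vector libraries, with Sox9 up to 6.37. Of their matrix genes, Acan was at 0.0982 FPKM or less, while Col2a1 and Col10a1 were higher in clone 6. In clone 6 and clone 12, Col2a1 was at 2.22 and 0.103 FPKM with NR6A1 and at 3.70 and 0.0765 with vector. Col10a1 was at 3.07 and 0.875 with NR6A1 and at 1.43 and 0.459 with vector. Among the stromal markers the collagen gene Col3a1 was at 147 and 90.1 FPKM with NR6A1 against 87.6 and 56.3 with vector (0.70 ± 0.07, SE; limma adjusted p = 0.169, and 0.0453 without short RNA genes), and its part in the members' changes was not tested. In bulk RNA, fewer cells of a type and less RNA per cell cannot be told apart.

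All 10 genes averaged at least 1 FPKM over the libraries and entered the test. In the NR6A1 libraries 4 were lower than with vector in both clones (Alpl, Phospho1, Fam20a and Phex), 2 were higher in both (Slc20a1 and Fam20c), and 3 went opposite ways (Enpp1, Ank and Slc20a2). Ibsp was lower in clone 6 and listed at 0 on both sides in clone 12. Among all 11346 genes tested, 29.4% were lower in both clones, 28.9% higher in both and 41.1% opposite. The median log2 change of the 10 was -0.20 (-0.11 without Ibsp), against 0.00098 over all genes tested. Fold changes called log2 are on the scale log2(FPKM + 1), which understates the change of low genes.

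**Figure D1:**
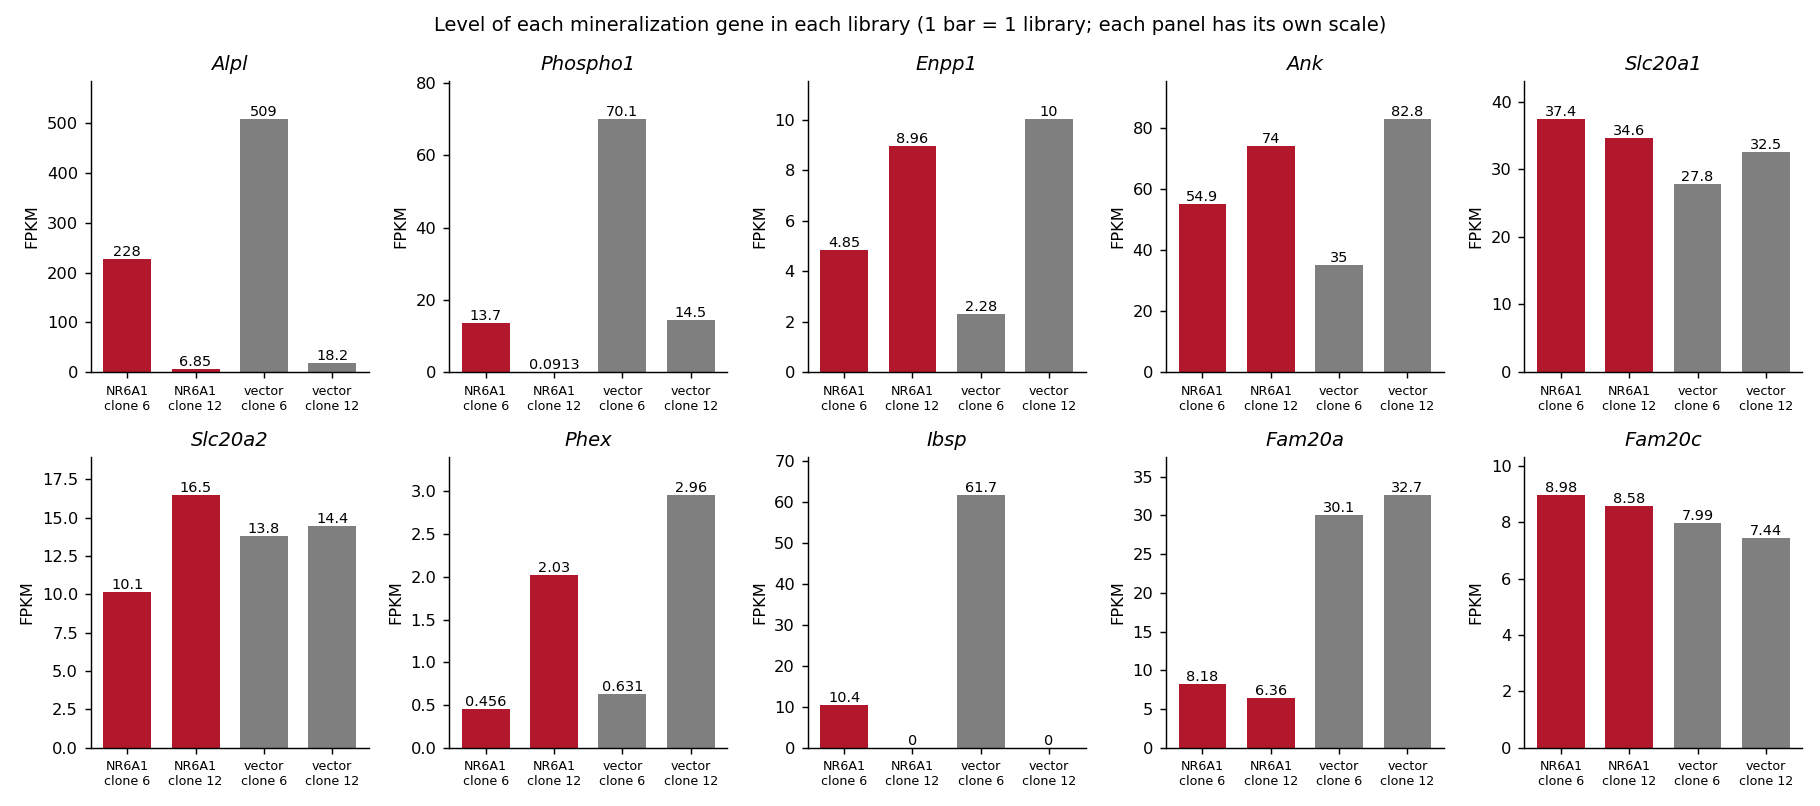
FPKM of each of the 10 genes (vertical axes, each from 0 with its own scale) in the 4 libraries; 1 bar is 1 library, red for NR6A1 and grey for vector. Fam20a is lower in both NR6A1 libraries (8.18 and 6.36) than in both vector libraries (30.1 and 32.7), while Alpl is set apart first by clone. Ibsp is above 0 in clone 6 alone, and its zeros listed in clone 12 need not mean absence.

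Alpl was the most abundant of the 10 in clone 6. It stood at 228 FPKM with NR6A1 against 509 with vector in clone 6, and at 6.85 against 18.2 in clone 12. Within each clone NR6A1 cells had less, 2.23-fold in clone 6 and 2.66-fold in clone 12, although the NR6A1 library of clone 6 still lay far above the vector library of clone 12, so the groups overlap. The fitted change was -1.22 ± 0.08 (SE; limma adjusted p = 0.0922). These values rest on many reads, an inferred 323 in the lowest library.

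Phospho1, the phosphatase inside matrix vesicles, had the largest fitted decrease of the list. Its level was 13.7 FPKM with NR6A1 against 70.1 with vector in clone 6, and 0.0913 against 14.5 in clone 12. Both NR6A1 libraries lay below both vector libraries, the closest pair being the NR6A1 library of clone 6 and the vector library of clone 12. The fitted change was -3.05 ± 0.40 (SE; limma adjusted p = 0.235). In FPKM the decrease was 5.12-fold in clone 6 and 159-fold in clone 12. The clone 12 value with NR6A1 stands for about 3 reads against about 564 with vector. The ratio of those reads, which is not scaled to library size, was 188. Its exact Poisson 95% interval of 64.4 to 912 covers the counting error of those 3 reads only.

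Fam20a, the pseudokinase, was the member whose decrease was seen at the same starting level in both clones. With NR6A1 it stood at 8.18 FPKM in clone 6 and 6.36 in clone 12, against 30.1 and 32.7 with vector (means 7.27 ± 1.29 and 31.4 ± 1.85, SD, n = 2 each). The groups do not overlap, and the decrease was 3.68-fold in clone 6 and 5.14-fold in clone 12. The fitted change was -1.98 ± 0.13 (SE; limma adjusted p = 0.0922). Its catalytic relative Fam20c did not follow: it was at 8.98 and 8.58 FPKM with NR6A1 and at 7.99 and 7.44 with vector, a change of 0.17 ± 0.09 (adjusted p = 0.647).

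Ibsp, the bone sialoprotein gene, had a value above 0 in clone 6 alone. In clone 6 it was at 10.4 FPKM with NR6A1 against 61.7 with vector, 5.94-fold less, or about 405 against 2784 inferred reads. In clone 12 it was listed at 0 in both libraries, where 1 read would give about 0.0264 and 0.0235 FPKM. A gene that cells in culture use widely, the cholesterol synthesis gene Hmgcs1, was also listed at 0 in every library, so a 0 here need not mean absence. The fitted change of -1.23 ± 0.63 (SE; adjusted p = 0.646) averages clone 6 with those zeros and is not the size seen in clone 6.

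The brake genes Enpp1 and Ank followed each other and not the phosphatases. In clone 6, Enpp1 was at 4.85 FPKM with NR6A1 against 2.28 with vector, and Ank at 54.9 against 35.0. In clone 12, Enpp1 was at 8.96 with NR6A1 against 10.0 with vector, and Ank at 74.0 against 82.8. Both were thus higher with NR6A1 in clone 6 (2.12-fold and 1.57-fold) and slightly lower in clone 12 (to 89.3% and 89.4% of vector). Over both clones the fitted changes were 0.34 ± 0.27 for Enpp1 (adjusted p = 0.720) and 0.24 ± 0.21 for Ank (adjusted p = 0.749), within the spread between the clones.

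Set per length, the balance of Alpl to Enpp1 differed mostly by clone and was lower with NR6A1 in each. The ratio of their FPKM was 47.1 with NR6A1 against 223 with vector in clone 6, and 0.764 against 1.82 in clone 12. In the NR6A1 library of clone 12 Enpp1 was thus above Alpl, the 1 library of the 4 where that was so. These ratios are of RNA levels in single libraries and were not tested.

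The phosphate carriers changed less than Alpl, Phospho1 and Fam20a, and neither passed. With NR6A1, Slc20a1 was 1.34-fold higher in clone 6 and 1.07-fold in clone 12. Slc20a2 was at 73.6% of vector in clone 6 and 114.2% in clone 12. Slc20a1 was at 37.4 and 34.6 FPKM with NR6A1 in clone 6 and clone 12 and at 27.8 and 32.5 with vector, so the groups do not overlap, with a change of 0.25 ± 0.11 (SE; adjusted p = 0.637). Slc20a2 was at 10.1 and 16.5 FPKM with NR6A1 and at 13.8 and 14.4 with vector, with a change of -0.11 ± 0.17 (adjusted p = 0.846), and its vector libraries lie between its NR6A1 libraries. Phex, the lowest member apart from Ibsp in clone 12 and Phospho1 in the NR6A1 library of clone 12, was at 0.456 and 2.03 FPKM with NR6A1 and at 0.631 and 2.96 with vector, with a change of -0.28 ± 0.18 (adjusted p = 0.689). Its lowest value stands for about 58 reads.

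**Figure D2:**
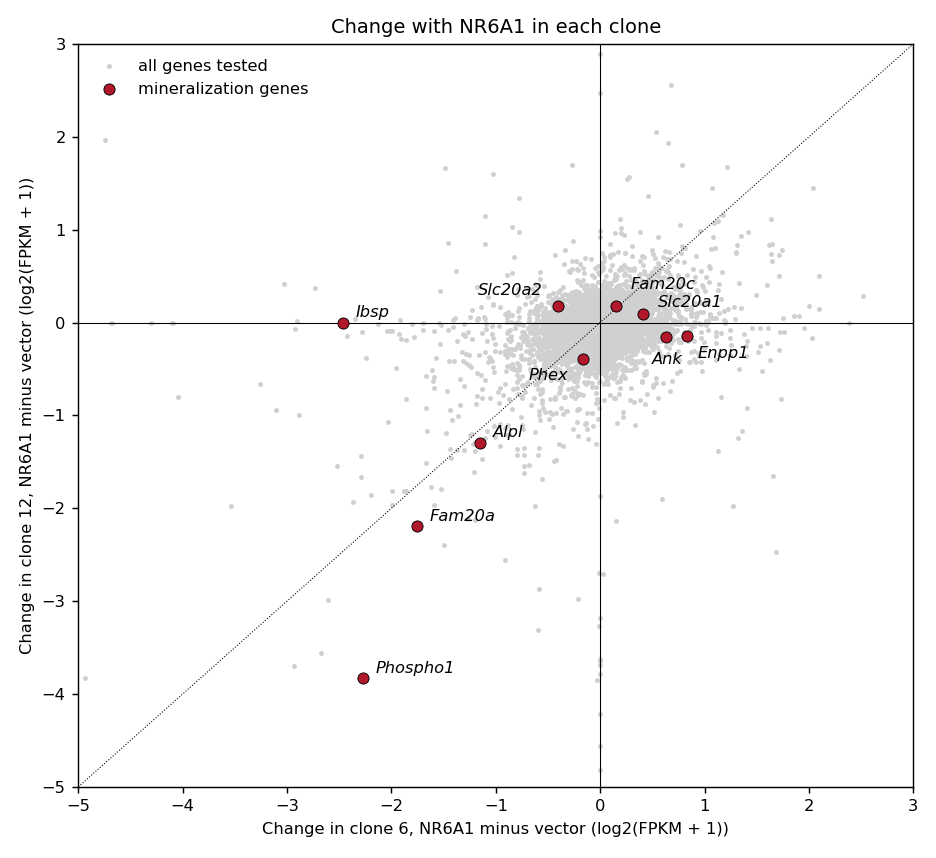
Change with NR6A1 in clone 6 (horizontal axis) and in clone 12 (vertical axis), NR6A1 minus vector in log2(FPKM + 1); grey points are all genes tested (55 lie outside the axes), red points the 10 genes, and the dotted line marks equal change. Alpl, Fam20a and Phospho1 lie low on both axes, Ibsp on the horizontal axis alone, and Enpp1 and Ank to the right of 0 and just below it.

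Of the 10 genes, 3 (Alpl, Phospho1 and Fam20a) had an unadjusted limma p under 0.05, against 8.48% of all genes tested (962), and 0 of the 10 passed Benjamini-Hochberg adjustment over all genes, against 0.0353% (4 genes). Without the 197 short RNA genes, whose FPKM from a library of polyadenylated RNA rests on very short lengths, the same 3 passed, with adjusted p of 0.0132 for Alpl, 0.0492 for Phospho1 and 0.0132 for Fam20a, against 0.457% of the 11149 genes left (51) in either direction and 0.368% lower. The same 3 were lower by at least 2-fold in both clones, against 0.423% of all genes tested for a decrease of that size. With any 1 library left out, a fit in which the clones can no longer be paired, no gene passed (96 to 286 at an unadjusted p under 0.05). Fam20a then kept a change of -2.14 to -1.82 and Phospho1 one of -4.93 to -1.18, while that of Alpl was -3.66 when the NR6A1 library of clone 6 was left out and 1.21 when the NR6A1 library of clone 12 was.

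The clones themselves differed in some of these genes. The choice of the list is not stated to have used this comparison. Levels of Alpl and Phospho1 in each clone were known, so these counts too are a description. With NR6A1, Alpl was at 6.85 FPKM in clone 12 against 228 in clone 6, 33.3-fold lower, and with vector at 18.2 in clone 12 against 509 in clone 6, 27.9-fold lower. The fitted difference, clone 12 minus clone 6, was -4.80 ± 0.08 (SE; limma adjusted p = 0.00157). Phospho1 was also lower in clone 12 (-2.97 ± 0.40, adjusted p = 0.0254), at 0.0913 FPKM (about 3 reads) in clone 12 against 13.7 in clone 6 with NR6A1, and 4.83-fold lower with vector. With 1 library left out the difference of Phospho1 ran from -4.89 to -1.06, with adjusted p from 0.202 to 0.601. Ibsp was listed at 0 in both clone 12 libraries, so its fitted difference of -4.74 ± 0.63 (adjusted p = 0.0251) rests on values that need not mean absence and is not read as a lower level.

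Enpp1 and Phex were higher in clone 12. Enpp1 was 1.85-fold higher there with NR6A1 and 4.40-fold with vector (1.26 ± 0.27, SE; limma adjusted p = 0.0471), and Phex 4.44-fold with NR6A1 and 4.70-fold with vector (1.17 ± 0.18, adjusted p = 0.0303). Ank was 1.35-fold higher in clone 12 with NR6A1 and 2.37-fold with vector, and did not pass (0.82 ± 0.21, adjusted p = 0.0674). Slc20a1, Slc20a2, Fam20a and Fam20c differed by 0.05, 0.36, -0.10 and -0.08, with adjusted p from 0.198 to 0.740. So the clone with less Alpl and Phospho1 was the one with more Enpp1 and Phex. The call of Enpp1 lay close to the threshold and held in only 4 of 11 alternative settings with all 4 libraries. It was lost with upper quartile scaling (limma adjusted p = 0.0543), quantile normalization (0.0618), no trend (0.0683) and a filter at 5 FPKM (0.0525). No filter (0.139), a robust prior (0.0915) and no replicate block (0.0589, all limma) lost it as well.

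**Figure D3:**
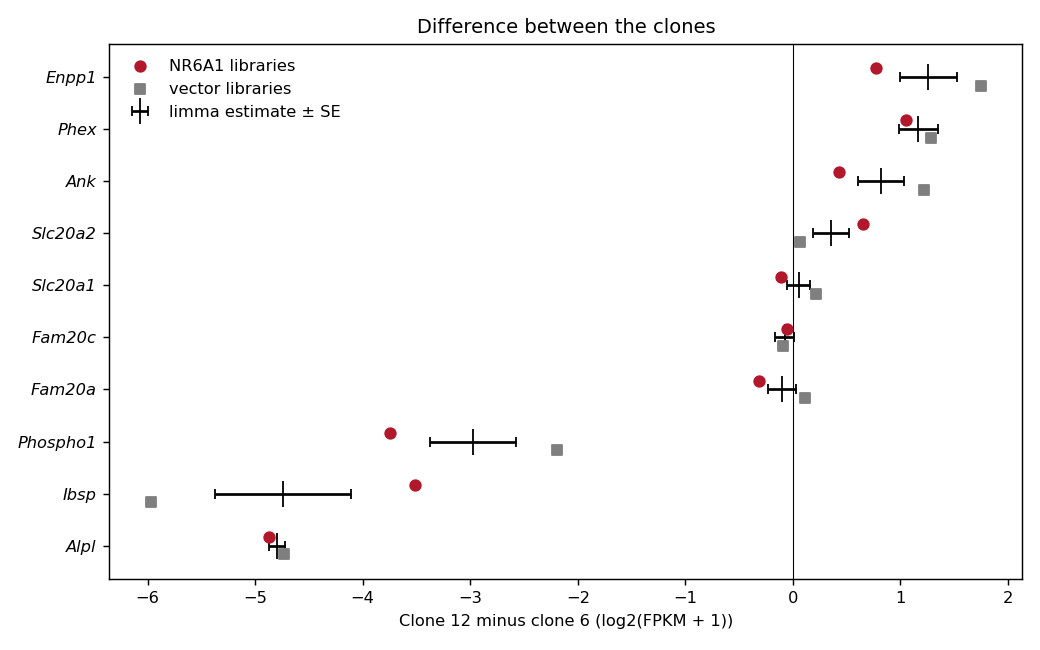
Difference between the clones, clone 12 minus clone 6 in log2(FPKM + 1) (horizontal axis), for the 10 genes; red circles are the NR6A1 libraries, grey squares the vector libraries, and black bars the limma estimate with its SE. Alpl, Phospho1 and Ibsp (the last from zeros listed in clone 12) lie far to the left in both kinds of library, and Enpp1, Phex and Ank to the right.

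In this comparison 5 of the 10 genes passed (2 lower and 2 higher in clone 12, and Ibsp on its zeros), or 4 of 9 without Ibsp, against 21.9% of all genes tested, and 6 had an unadjusted p under 0.05, against 41.1%. Without short RNA genes Ank passed as well (6 of 10), against 31.2%. The median absolute difference was 0.82 in the 9 genes other than Ibsp and 0.995 in all 10, against 0.22 over all genes tested. With no filter on low values none passed (5 at an unadjusted p under 0.05, limma), and 2 (Alpl and Phex) passed with a robust prior. Left-out libraries, in fits without a virus block, changed the calls: 0 of the 10 passed without the vector or without the NR6A1 library of clone 12, 1 (Ibsp) without the vector library of clone 6, and 3 (Enpp1, Ank and Ibsp) without the NR6A1 library of clone 6, while all of Alpl, Phospho1, Ibsp, Enpp1, Phex and Ank kept their direction. The stem cell antigen gene Cd34, on the list of blood cell markers, moved with the clones too, at 9.99 FPKM in clone 12 against 0.131 in clone 6 with NR6A1 and at 13.8 against 0.116 with vector. The summed list was at 10.0 and 13.9 FPKM in the clone 12 libraries against 0.202 and 0.167 in those of clone 6, its other 5 members were at 0.0705 or less, and the part of such cells in the difference was not tested.

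Other tested genes of phosphate and pyrophosphate handling had small changes. Both clones agreed in 4 of 5 tested genes, 1 lower and 3 higher, the median log2 change was 0.06, and none was past the threshold with or without short RNA genes. The mitochondrial phosphate carrier Slc25a3 was at 586 and 496 FPKM with NR6A1 and at 534 and 462 with vector. The inorganic pyrophosphatases Ppa1 and Ppa2 differed by 0.06 ± 0.07 and -0.05 ± 0.07, and the phosphate exporter Xpr1 by 0.06 ± 0.09. Abcc6, through which liver cells release ATP, and the kidney and gut carriers Slc34a1, Slc34a2 and Slc34a3 were at 0.0219 FPKM or less.

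Among 8 tested relatives of the members, 5 were lower and 2 higher in both clones (median -0.15). Mme, the peptidase neprilysin and a relative of Phex, was at 2.62 and 4.30 FPKM with NR6A1 and at 19.8 and 14.5 with vector, a change of -2.03 ± 0.26 (SE; limma adjusted p = 0.232, and 0.0492 without short RNA genes), the 1 relative past the threshold in the second fit. Phospho2, related to Phospho1, stood at 7.30 and 7.85 FPKM with NR6A1 against 8.74 and 8.77 with vector. Enpp2, which makes lysophosphatidic acid, was at 1.46 FPKM with NR6A1 against 7.96 with vector in clone 12, and at 0.0975 against 0.101 in clone 6. Phospho2 and Enpp2 are named after their values were seen. The other alkaline phosphatase genes Alpi, Akp3 and Alppl2 were at 0.0278 FPKM or less.

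Of 6 tested matrix regulators of mineral, 2 were lower in both clones and 4 opposite (median -0.35), and none passed. Spp1, the mineral-binding osteopontin, was at 409 FPKM with NR6A1 against 254 with vector in clone 6 and at 1157 against 1794 in clone 12, and the inhibitor Mgp was at 10.8 with NR6A1 against 6.80 with vector in clone 6 and at 9.77 against 39.3 in clone 12, so both were higher with NR6A1 in clone 6 and lower in clone 12. Sparc, a collagen-binding protein, was at 1184 and 1067 FPKM with NR6A1 against 1280 and 1062 with vector, and Ggcx, which carboxylates Mgp and osteocalcin, at 24.1 and 15.5 with NR6A1 against 26.5 and 15.1 with vector. The osteocalcin genes Bglap and Bglap2, near-identical copies whose reads may be shared, were picked out once their values were known. Like Ibsp, both were lower with NR6A1 than with vector in clone 6. There Bglap stood at 3.86 FPKM with NR6A1 against 17.2 with vector and Bglap2 at 2.59 against 13.8, and the highest clone 12 value of either was 0.396. Dmp1, also a marker of osteocytes, reached 0.776 FPKM, and Mepe and the plasma inhibitor gene Ahsg were listed at 0.

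Of 9 genes for phosphocholine supply and matrix vesicles, 4 were lower and 4 higher in both clones (median 0.03), with none past the threshold. Annexins, calcium-binding proteins abundant in matrix vesicles, did not all go the same way. Anxa2 was at 676 and 883 FPKM with NR6A1 against 676 and 1122 with vector, and Anxa5 at 382 and 330 with NR6A1 against 418 and 335 with vector. Anxa1 was higher in both clones, at 378 and 423 FPKM with NR6A1 against 291 and 372 with vector (0.28 ± 0.09, SE, limma adjusted p = 0.553). Anxa6 was at 87.5 and 69.3 with NR6A1 against 84.9 and 61.4 with vector. Smpd3, the sphingomyelinase that releases phosphocholine for Phospho1, is named after its values were seen: it was at 5.12 FPKM with NR6A1 against 23.7 with vector in clone 6 and at 1.99 against 2.20 in clone 12 (-1.06 ± 0.50, adjusted p = 0.645). Of 5 tested secretory pathway kinases other than the members, 1 was lower and 2 higher in both clones (median 0.04). Fam20b, the xylose kinase of proteoglycans, differed by 0.04 ± 0.07 (SE), and Fam69a, of a related family, was at 18.5 and 30.9 FPKM with NR6A1 against 15.4 and 30.0 with vector.

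In the phosphate hormone axis 4 genes were tested, 2 of them lower and 1 higher in both clones (median -0.53), and none passed. The parathyroid hormone receptor gene Pth1r was at 15.4 FPKM with NR6A1 against 52.2 with vector in clone 6 and at 0.191 against 0.197 in clone 12. Galnt3, the enzyme that protects the hormone FGF23 from cleavage, was at 0.332 FPKM with NR6A1 against 3.66 with vector in clone 6 and at 0.0279 against 0.0374 in clone 12. Vdr, the vitamin D receptor, was higher in both clones, at 30.1 and 20.3 FPKM with NR6A1 against 19.6 and 14.3 with vector (0.54 ± 0.08, SE; limma adjusted p = 0.265), and the FGF receptor gene Fgfr1 was at 31.5 and 25.1 with NR6A1 against 46.5 and 23.1 with vector. Fgf23 and its co-receptor Kl were at 0.102 FPKM or less.

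The osteoblast transcription factors gave 6 tested genes, 5 lower and 1 higher in both clones (median -0.24), with none past the threshold. Sp7, needed for osteoblasts to form, was at 50.6 FPKM with NR6A1 against 120.1 with vector in clone 6 and at 0.294 against 0.459 in clone 12, and Runx2, the master factor of the lineage, was at 23.4 and 17.4 FPKM with NR6A1 against 32.2 and 17.9 with vector. Dlx5 was at 33.2 and 2.56 FPKM with NR6A1 against 62.9 and 4.11 with vector (-0.71 ± 0.12, SE; limma adjusted p = 0.325), and Atf4, the most abundant of them, at 279 and 367 with NR6A1 against 328 and 429 with vector. Sp7 was lower in clone 12 than in clone 6, like Alpl (-5.85 ± 0.28, SE; limma adjusted p = 0.00917).

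**Figure D4:**
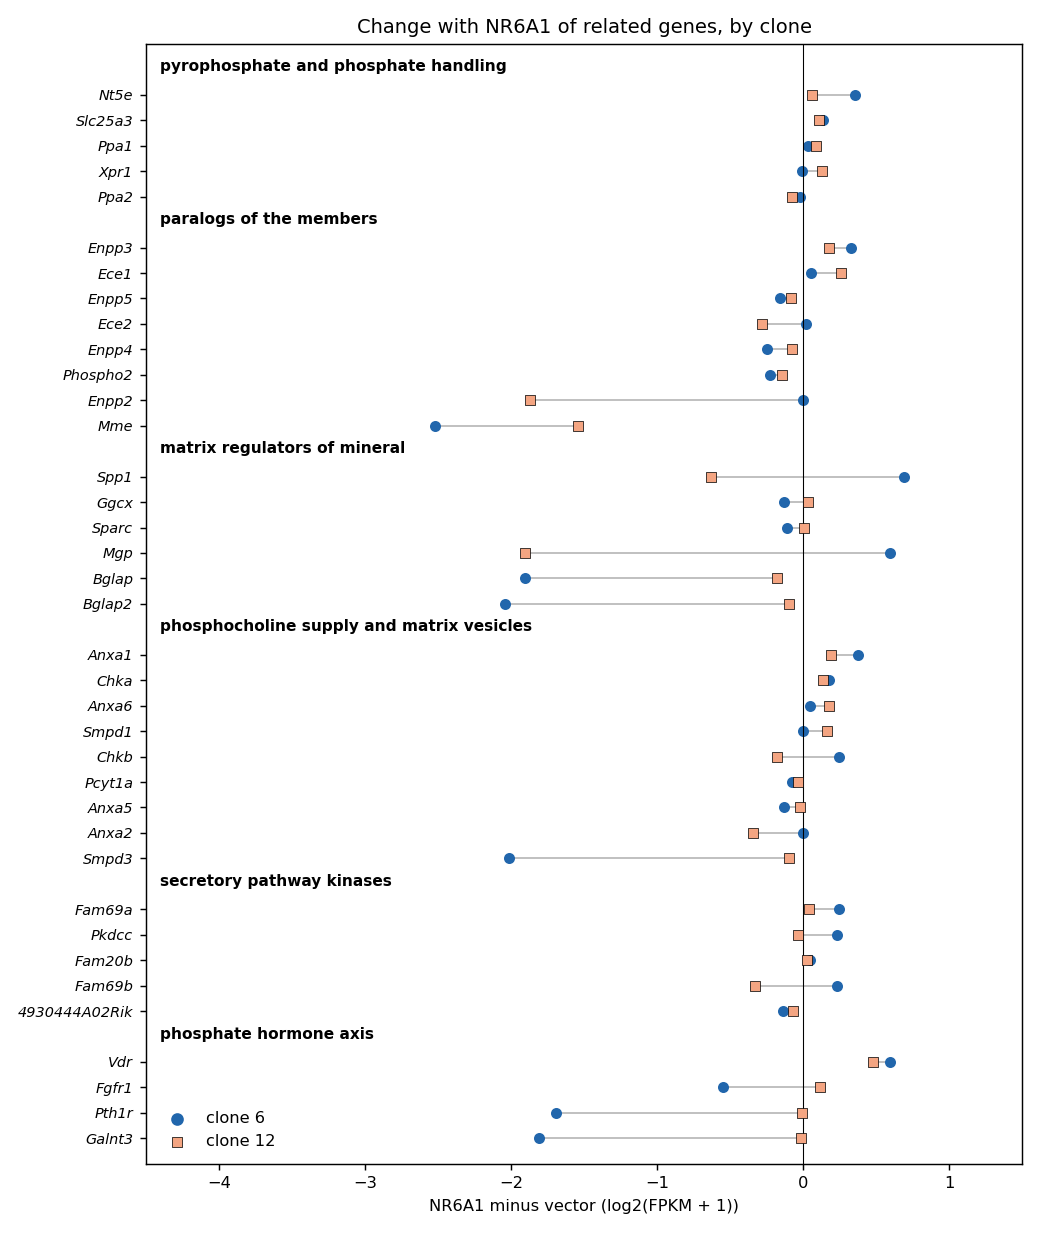
Change with NR6A1 (horizontal axis, NR6A1 minus vector in log2(FPKM + 1)) of the tested genes of 6 related lists; blue circles are clone 6 and orange squares clone 12. Most genes lie near 0 in both clones, and Mme is low in both. Bglap, Bglap2, Smpd3, Pth1r and Galnt3 lie far to the left in clone 6 and at or just below 0 in clone 12. In clone 12 all of them but Smpd3 were under 0.4 FPKM, where this scale flattens changes. Mgp (-1.90) and Enpp2 (-1.87) lie far to the left in clone 12 and not in clone 6. The deposited symbol of Sgk196 is 4930444A02Rik.

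Genes whose pattern over the 4 libraries lay nearest to 3 of the members were found by the Euclidean distance between centred log2(FPKM + 1) values, among 9294 genes averaging 5 FPKM or more. Nearest to Alpl were Aes (distance 0.625), Hpgd (0.991), Pth1r (1.001), Nts (1.02) and Ch25h (1.09). Aes was at 106 FPKM with NR6A1 against 255 with vector in clone 6, and at 1.44 against 9.56 in clone 12. Nearest to Phospho1 were Sfrp2 (0.729), Kctd12 (1.52), Plxdc2 (1.92), Pdk4 (1.98) and Cxcl14 (2.04), and nearest to Fam20a were Rassf2 (0.498), Fam134b (0.520), Nrn1 (0.575), Lmcd1 (0.667) and Mme (0.726). No gene lay as near to Phospho1 as the closest did to Fam20a or Alpl. Among the 9 members with such a mean, the closest pair was Slc20a1 and Fam20c (0.235), followed by Enpp1 and Ank (0.459). With 4 libraries such likeness is a description of these values.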

How the data were processed

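FPKM per gene and library were deposited by the authors; TopHat 1.2.0, Cufflinks 1.0.3 and build mm9 are named in the submitters' processing notes, while annotation and strandedness were not given in the sources used here. The 11346 genes averaging 1 FPKM or more went into limma 3.58.1 (R 4.3.3) on the log2(FPKM + 1) scale, with virus and clone as terms, a trended prior variance, two-sided p-values and Benjamini-Hochberg adjustment over all genes at 0.05; the test was run on simulated data first. The 4 libraries leave 1 residual degree of freedom and a prior of 2.9 from all genes. Same-numbered libraries come from the same line, per the labels' protocols; the clone difference correlated between NR6A1 and vector across genes with r = 0.628 (0.873 without short RNA genes). Nothing says that repeat cultures were made, so p-values measure how alike the 2 lines behaved. Depth was inferred from 1818 genes with 1 annotated GENCODE transcript of at least 1500 bases, where 48.1% to 52.8% of low values lay no more than 0.1 from a whole number of reads (chance gives 20%), so no count test was run. Named were the 10 members, Nr6a1, up to 4 genes of each list by level or those past the threshold, and the 5 nearest genes of 3 members; exceptions are marked. Members, lists, rules and alternatives (pseudocount, filter, scaling, trend, prior, block, left-out libraries, short RNA genes, threshold) were chosen with earlier results of these data known.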

Additional observations from a re-analysis of the deposited data

Results flagged for a closer look

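Of the members, 3 changed in opposite directions in the clones, a difference that was not tested because each clone has 1 library per virus. Enpp1 changed by -0.15 in clone 12 and 0.83 in clone 6 (log2(FPKM + 1), NR6A1 minus vector), a difference of -0.98. Ank changed by -0.16 in clone 12 and 0.64 in clone 6, a difference of -0.79. Slc20a2 changed by 0.18 in clone 12 and -0.41 in clone 6, a difference of 0.59. Opposite directions were seen in 41.1% of all genes tested.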

How the results depend on the processing

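For NR6A1 against vector, 4 genes and 0 members passed; with other settings genes and members were 7 and 1 (Phospho1) with a pseudocount of 5, 2 and 0 with no filter, 38 and 2 (Alpl, Fam20a) with a robust prior, 51 and 3 without short RNA genes, and 25 and 2 at a false discovery rate of 0.1. Leaving out any library gave 0 genes. For clone 12 against clone 6, 2490 genes and 5 members (Ibsp on listed zeros) passed; this became 0 and 0 with no filter (limma; 5360 and 5 at an unadjusted p under 0.05), 3 members with a filter at 5 FPKM, 4 with either scaling, 1581 genes and 4 members with no trend, 2 members with a robust prior, and 4163 genes at a false discovery rate of 0.1. With a library left out it gave 41 to 889 genes and 0 to 3 members. Without the replicate block, 4 genes and 0 members passed for NR6A1, and 1993 genes and 3 members (Alpl, Phex, Ibsp) between clones. The members' median of -0.20 was -0.29 and -0.10 with pseudocounts of 0.1 and 5, and members lower in both clones numbered 4 in each setting except the filter at 5 FPKM (3, as Phex is dropped). Leaving out a library, which unpairs the clones, turned the NR6A1 change of Alpl (-3.66 to 1.21), Enpp1 (-0.53 to 1.22), Ank (-0.37 to 0.85), Ibsp (-4.22 to 1.76), Phex (-0.92 to 0.36) and Slc20a2 (-0.44 to 0.21), and the clone difference of Slc20a1 (-0.15 to 0.26), Fam20a (-1.20 to 0.996) and Fam20c (-0.17 to 0.017). With 4 libraries, 194 of 218 alternative values of members kept direction and side of the threshold, 10 newly passed and 14 no longer did. Depth limits the clone 12 value of Phospho1 with NR6A1, about 3 reads; why Ibsp is listed at 0 in clone 12, and the cause of these shifts, were not tested.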
